A study of Mus musculus with 16 samples.

Results

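The genes of the mitochondrial respiratory chain were examined in the livers of 16 male C57BL6 mice, 4 in each of 4 groups. TSP1F/F mice carried a floxed Thbs1 gene, which encodes thrombospondin 1, and served as littermate controls. TSP1ΔPf4 mice carried the same floxed gene together with Pf4-Cre, a recombinase driven by a promoter of platelets and their precursors, the megakaryocytes. Mice of both genotypes were fed a low-fat (LF) diet or the AMLN diet, which is enriched in fat, fructose and cholesterol and is used to model steatohepatitis, for 32 weeks. Whole liver RNA was sequenced, so a gene's level is that of all liver cells together, and fewer cells of a type and less RNA per cell cannot be told apart.

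The members were all genes of the mitochondrial genome (chromosome MT) and the nuclear protein-coding genes whose symbols begin with Nduf, Uqcr, Cox4 to Cox8 or Atp5 or are Sdha to Sdhd. In all, 104 of the 5205 genes in the deposited tables were members, 28 of them mitochondrial and 76 nuclear. The table of TSP1F/F mice held 21 members among 2558 genes (9 mitochondrial and 12 nuclear). The table of TSP1ΔPf4 mice held 97 members among 3399 genes (26 mitochondrial and 71 nuclear), and 14 members were in both tables. Both tables hold only genes selected on the AMLN-to-LF contrast within that genotype, all with an unadjusted p-value under 0.05. The members were therefore chosen by the measured diet difference, so every diet difference below is a description without a test. A member that is in only 1 of the tables was not analysed here in the other genotype.

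The respiratory chain passes electrons from NADH and succinate to oxygen through complexes I to IV, and the proton gradient they build drives ATP synthase, complex V. The mitochondrial genome encodes a small core of subunits of complexes I, III, IV and V, and all other subunits, including every subunit of complex II, are encoded in the nucleus and imported. The mitochondrial genome is transcribed as long precursors that are cut at the tRNAs lying between the other genes, and its rRNAs and tRNAs serve translation inside the organelle. Hepatocytes are rich in mitochondria, which oxidise fatty acids in the liver.

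The library totals, computed from counts, gene lengths and FPKM, ranged from 17127965 to 39753019 reads, with a median of 21485268. Thbs1 was in the TSP1F/F table only, at 0.313, 1.82, 0.717 and 0.375 CPM on the LF diet and 1.94, 3.23, 13.3 and 10.1 CPM on the AMLN diet, so the deletion could not be compared between genotypes here. Because each genotype has its own table, a difference in how the tables were made and a difference between genotypes cannot be told apart. The third LF-fed TSP1ΔPf4 mouse stood apart and had the highest of the 8 values for 1479 of the 3399 genes in its table. It was also highest for 68 of the 71 nuclear members and 12 of the 26 mitochondrial members, so medians, counts and the named nuclear folds of the TSP1ΔPf4 table are also given without it, a choice made after the data were seen. In the TSP1F/F table the third LF-fed mouse was highest for 10 of the 12 nuclear members, and for 541 of all 2558 genes. The third AMLN-fed mouse was lowest for 10 of the 12, and for 388 of the 2558. Defining hepatocyte genes were abundant in all livers. Of 10 hepatocyte markers sought, the 6 in the TSP1ΔPf4 table summed to 12601 to 35204 CPM (counts scaled to the library total). The 3 in the TSP1F/F table summed to 3175 to 9582 CPM.

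In TSP1F/F livers the mitochondrial and nuclear members stood on opposite sides. All 9 mitochondrial members in the table were higher on the AMLN diet, and all 12 nuclear members were lower. Of all 2558 genes in that table, 67.5% had the higher mean on the AMLN diet and 32.5% the lower. The mitochondrial members were 8 tRNAs and mt-Nd3, a subunit of complex I, and their summed level was 100 ± 29.7 CPM on the LF diet and 224 ± 86.8 CPM on the AMLN diet (SD, n = 4 mice each). The nuclear members summed to 2418 ± 751 CPM on the LF diet and 1455 ± 411 CPM on the AMLN diet (SD, n = 4 each). The fitted log2 folds (AMLN over LF) of the 8 mitochondrial members that passed the filter on low counts had a median of 1.29, and those of the 12 nuclear members a median of −0.72. The median over all 2096 genes fitted was 1.15. It was 1.765 over the fitted genes that were higher on the AMLN diet and −0.83 over those that were lower. With each mouse left out in turn, the median of the nuclear members was −0.91 to −0.56.

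The largest mitochondrial fold among the fitted genes was that of mt-Tm, the methionine tRNA, with a log2 fold of 2.07 (standard error 0.87). Its levels were 0.522, 0.161, 0.276 and 0.413 CPM on the LF diet and 1.12, 3.82, 0.553 and 0.381 CPM on the AMLN diet, and the diets overlapped. The alanine tRNA mt-Ta was near the limit of detection, with counts of 0, 1, 0 and 0 in the LF-fed mice and 33, 17, 34 and 0 in the AMLN-fed mice. Its mean level was at least 4.40-fold higher on the AMLN diet, taking 3 counts per library as the floor in the LF-fed mice. Of the 9 mitochondrial members, mt-Th, mt-Nd3 and mt-Tg had every AMLN-fed mouse above every LF-fed mouse. This was so for 33.9% of all genes in the table. Those 33.9% were 867 genes, all among the 1726 with the higher AMLN mean, as the 9 are. The like share, among higher genes only, is therefore higher than 33.9%.

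Nuclear members were assigned to complexes by the start of their symbols alone, here and below. By that rule those of the TSP1F/F table were spread over complexes I, II, III and V, and none fell under complex IV. Complex V was represented by Atp5s alone. Their folds lay close together, from −0.83 for Ndufb3 to −0.62 for Uqcrc1 on the log2 scale. The 5 lowest fitted folds were those of Ndufb3, an accessory subunit of complex I (−0.83, standard error 0.37), Uqcrc2, a core subunit of complex III (−0.83, standard error 0.39), Ndufaf4, an assembly factor of complex I (−0.81, standard error 0.41), Uqcrb of complex III (−0.79, standard error 0.39) and Sdhd, a membrane anchor of complex II (−0.78, standard error 0.39). Uqcrc2 had 228, 470, 704 and 278 CPM in the LF-fed mice and 166, 267, 176 and 338 CPM in the AMLN-fed mice. Ndufaf4 had 32.5, 47.9, 79.9 and 30.4 CPM on the LF diet and 19.5, 36.1, 13.8 and 39.4 CPM on the AMLN diet. The diets overlapped in both genes. Only Uqcrc1, Ndufs7 and Atp5s, 3 of the 12, had every AMLN-fed mouse below every LF-fed mouse, against 13.3% of all genes in the table. Those 13.3% were 341 genes, all among the 832 with the lower AMLN mean, as the 12 are. The like share, among lower genes only, is therefore higher than 13.3%.

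In TSP1ΔPf4 livers both classes were lower on the AMLN diet. All 26 mitochondrial and all 71 nuclear members had the lower mean on the AMLN diet, as did 55.8% of the 3399 genes in the table. The listed mitochondrial genes took 13.9%, 10.2%, 10.2% and 9.68% of the library in the LF-fed mice (11.0% ± 1.95, SD, n = 4) and 3.51%, 5.28%, 4.93% and 5.40% in the AMLN-fed mice (4.78% ± 0.869, SD, n = 4). The 2 diets did not overlap in this share. The 71 nuclear members summed to 10785, 11529, 23266 and 13455 CPM on the LF diet and to 7844, 6384, 6240 and 9131 CPM on the AMLN diet. The highest of the LF-fed values was that of the mouse that stood apart, and the other 3 LF-fed mice were still above every AMLN-fed mouse. Fitted log2 folds had a median of −1.28 over the mitochondrial members, −0.96 over the nuclear members and −0.54 over all 3089 genes fitted. Over the fitted genes that were lower on the AMLN diet, as all members were, the median was −0.85. Without the third LF-fed mouse the median was −1.16 over the mitochondrial and −0.68 over the nuclear members. All 97 members were then still lower on the AMLN diet.

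**Figure D1:**
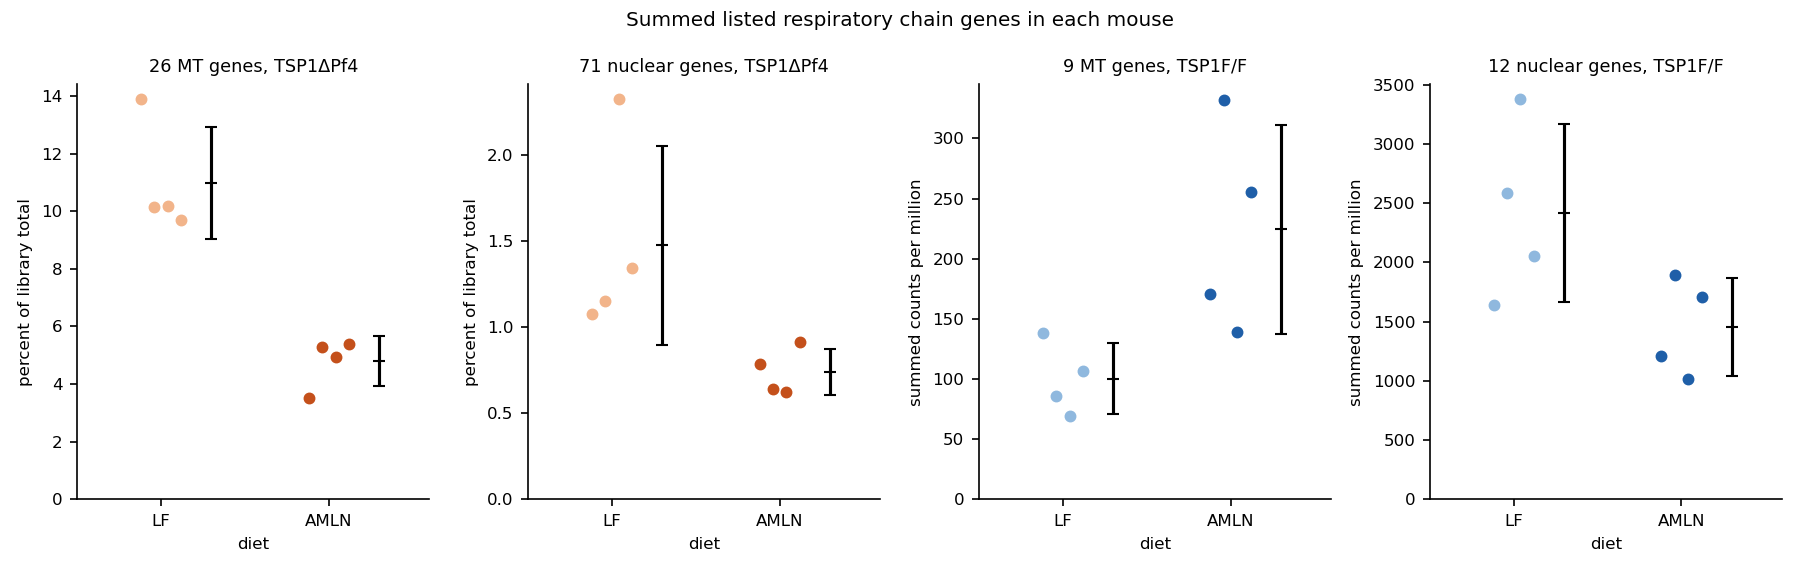
Summed levels of the listed respiratory chain genes in each mouse (points) with the mean and SD of 4 mice (bar to the right of the points), as percent of the library total for TSP1ΔPf4 and as CPM for TSP1F/F livers. In TSP1ΔPf4 livers the mitochondrial share was 9.68% to 13.9% on the LF diet and 3.51% to 5.40% on the AMLN diet, while in TSP1F/F livers the 9 mitochondrial genes had the higher mean, and the 12 nuclear genes the lower mean, on the AMLN diet.

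The TSP1ΔPf4 table held 12 of the 13 mitochondrial mRNAs, both rRNAs and 12 of the 22 tRNAs annotated in GENCODE M21. The mRNA missing from both tables was mt-Atp8. The 12 mRNAs had log2 folds between −1.76 and −1.03 with a median of −1.24. For all 12, every AMLN-fed mouse was below every LF-fed mouse, against 27.3% of all genes in that table. Those 27.3% were 929 genes, all among the 1896 with the lower AMLN mean, so the like share is higher. The rRNAs behaved alike, with folds of −1.12 (standard error 0.23) for mt-Rnr1 of the small ribosomal subunit and −1.27 (standard error 0.29) for mt-Rnr2 of the large subunit, and neither overlapped between diets. The tRNAs were more scattered, from −3.19 for mt-Tt to −0.72 for mt-Te, and 6 of the 12 did not overlap. Without the third LF-fed mouse the median was −1.21 over the mRNAs and −1.03 over the rRNAs, and that over the tRNAs went from −1.68 to −0.999. The mRNA that moved most was mt-Nd3, from −1.76 to −1.11.

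Per length, mt-Co1, the catalytic subunit of complex IV, was the highest of the mitochondrial mRNAs, with 28674 ± 5221 FPKM on the LF diet and 12410 ± 2301 FPKM on the AMLN diet in TSP1ΔPf4 livers (SD, n = 4 each). It had 56388, 40729, 39836 and 40251 CPM in the LF-fed mice and 14097, 21362, 19355 and 21881 CPM in the AMLN-fed mice, a log2 fold of −1.21 (standard error 0.19). Next in order came mt-Cytb, the cytochrome b of complex III, with 14648 ± 2769 FPKM on the LF diet, and the complex I subunits mt-Nd2 with 11191 ± 1787 and mt-Nd1 with 10865 ± 2194 FPKM. The difference between mt-Nd2 and mt-Nd1 was smaller than the SD of either. The complex I subunits mt-Nd6, mt-Nd4 and mt-Nd5 followed at 6908 ± 1088, 5993 ± 1402 and 4980 ± 984 FPKM, and neighbouring values differed by less than the larger of their SDs. The folds of these 6 genes were −1.29 for mt-Cytb, −1.03 for mt-Nd2, −1.11 for mt-Nd1, −1.45 for mt-Nd6, −1.27 for mt-Nd4 and −1.15 for mt-Nd5.

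The other 5 mRNAs were far lower per length, between 208 and 727 FPKM on the LF diet. They were mt-Co3 (727 ± 254), mt-Co2 (695 ± 184), mt-Atp6 (589 ± 166), mt-Nd3 (237 ± 172) and mt-Nd4l (208 ± 36.3 FPKM), which encode subunits of complexes IV, IV, V, I and I. They are also the mRNAs whose sequence has a near-identical copy in the nuclear genome. Of their 50-base words, 98.0% to 100% also occur in annotated transcripts of other genes, mainly a row of pseudogenes on chromosome 1. The 7 more abundant mRNAs share from 0% (mt-Nd1, mt-Nd6, mt-Cytb) to 62.2% (mt-Nd4) of their words with other transcripts, and mt-Co1 shares 51.1%. How reads that match both places were counted is not stated in the sources used here, so the levels of the 5 genes, and the mitochondrial shares above, are uncertain.

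The copies themselves were in the TSP1ΔPf4 table, 7 on chromosome 1 and 3 on chromosome 2 (Gm13339, Gm13340 and Gm13341), and none was in the TSP1F/F table. All 10 were lower on the AMLN diet. Gm10925, the copy of mt-Atp6 (chr1:24613974-24614651, minus strand, mm10), had 400 ± 80.04 CPM on the LF diet and 167 ± 36.2 CPM on the AMLN diet, nearly the level counted for mt-Atp6 itself (401 ± 113 and 165 ± 34.8 CPM). Their log2 folds were −1.26 (standard error 0.24) and −1.28 (standard error 0.25). Gm28438, the copy of mt-Nd3 (chr1:24612775-24613119, minus strand), had 25.3, 19.8, 41.3 and 22.5 CPM on the LF diet and 8.14, 11.5, 7.43 and 8.31 CPM on the AMLN diet. Gm29216, the copy of the end of mt-Co1, had a fold of −1.77 (standard error 0.28), the largest of the 10, and −1.71 without the third LF-fed mouse. The median over the 10 was −1.30 with all mice and −1.25 without it.

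**Figure D2:**
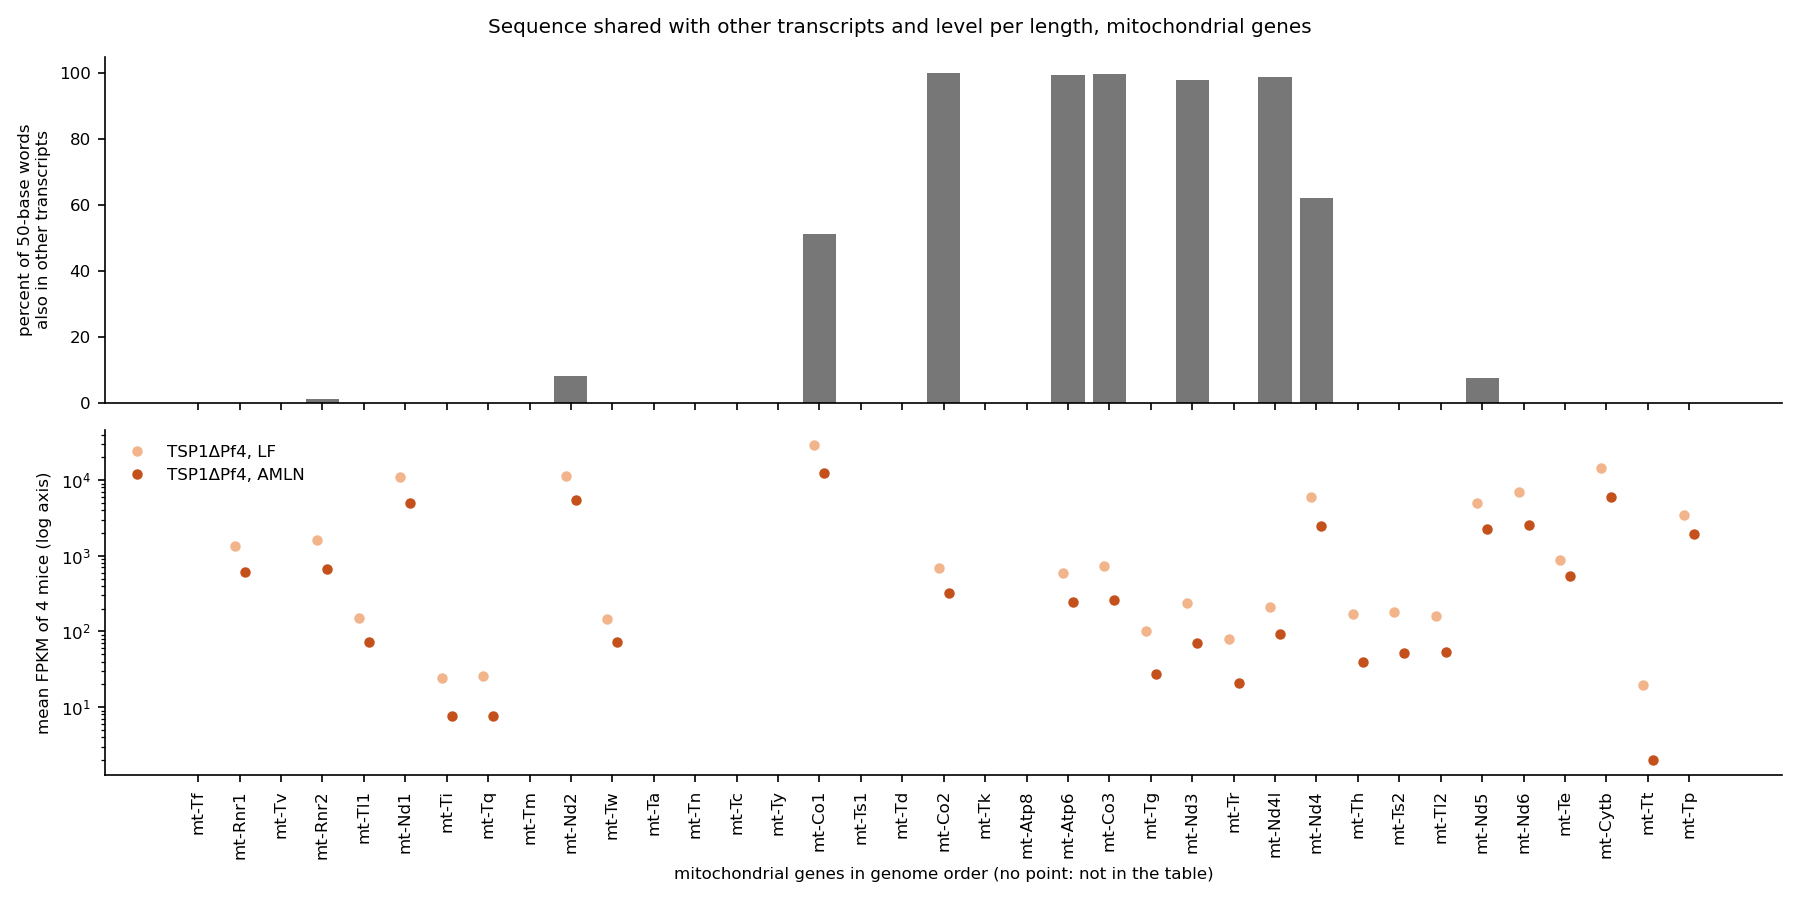
All 37 mitochondrial genes in genome order, with the percent of their 50-base words that occur in transcripts of other genes (top) and the mean FPKM of 4 mice per diet in TSP1ΔPf4 livers on a log axis (bottom; genes with no point were not in the table). The 5 mRNAs with 98.0% to 100% of words elsewhere lay between 208 and 727 FPKM on the LF diet, and the other 7 between 4980 and 28674 FPKM.

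Among the tRNAs of the TSP1ΔPf4 table, the largest fold was that of the threonine tRNA mt-Tt (log2 fold −3.19, standard error 0.72). It had 0.637, 1.30, 2.34 and 0.902 CPM on the LF diet and 0.300, 0.164, 0.0319 and 0.0431 CPM on the AMLN diet. Its highest count in any mouse was 40, so it was near the limit of detection. Without the third LF-fed mouse its fold was −2.75 (standard error 0.75). The isoleucine tRNA mt-Ti (−1.65, standard error 0.48) and the glutamine tRNA mt-Tq (−1.72, standard error 0.52) were likewise at a few CPM or less. The glutamate tRNA mt-Te and the proline tRNA mt-Tp had the highest levels, 60.7 ± 4.12 and 232 ± 66.8 CPM on the LF diet, and the smallest folds, −0.72 (standard error 0.22) and −0.82 (standard error 0.29). Both lie on the strand opposite to mt-Cytb and most other genes, on either side of mt-Cytb, and whether reads were counted by strand is not stated. The leucine tRNA mt-Tl1 had 11.2 ± 5.98 CPM on the LF diet and 5.50 ± 1.92 CPM on the AMLN diet, and its diets overlapped.

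Among the nuclear members of the TSP1ΔPf4 table, complex III had the largest median fold, −1.47 over 6 genes, followed by complex IV (−1.08, 11 genes), complex V (−1.02, 14 genes), complex I (−0.94, 34 genes), the complex I assembly factors (−0.83, 4 genes) and complex II (−0.70, 2 genes). Without the third LF-fed mouse the medians were −1.02 for complex III, −0.70 for complexes IV and V, −0.68 for complex I, −0.62 for the assembly factors and −0.48 for complex II. With all mice or without that one, within complexes I, III, IV and V the folds ranged more widely than the medians differed between complexes. The table held 34 of the 38 annotated complex I genes under the name rule, 6 of 8 for complex III, 11 of 18 for complex IV, 14 of 18 for complex V and 2 of 4 for complex II. Of the 71, 53 had every AMLN-fed mouse below every LF-fed mouse, against 27.3% of all genes in that table. Without the third LF-fed mouse the count was again 53, against 28.5%. Those shares are 929 and 969 genes, all among the 1896 with the lower AMLN mean, as the 71 are. The like shares, among lower genes only, are therefore higher.

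The 5 lowest fitted folds were those of Uqcrh, the hinge subunit of complex III, Atp5e, the epsilon subunit of ATP synthase, Ndufb2 and Ndufb4, accessory subunits of complex I, and Atp5l, the g subunit of ATP synthase. Uqcrh had 278, 312, 968 and 414 CPM on the LF diet and 147, 115, 100.3 and 218 CPM on the AMLN diet, a log2 fold of −1.77 (standard error 0.41). Atp5e had 267, 314, 920.2 and 395 CPM on the LF diet and 144, 101, 108 and 213 CPM on the AMLN diet, a fold of −1.74 (standard error 0.40). In both genes the third LF-fed mouse had more than 2 times the level of any other mouse, and the remaining LF-fed mice were still above all AMLN-fed mice. Ndufb2 (−1.73, standard error 0.46) went from 32.8 ± 25.4 to 9.86 ± 3.004 CPM, Ndufb4 (−1.64, standard error 0.43) from 138 ± 97.6 to 44.2 ± 15.4 CPM and Atp5l (−1.56, standard error 0.35) from 284 ± 160 to 96.0 ± 22.7 CPM (SD, n = 4 each), with no overlap between diets. Without the third LF-fed mouse the 5 folds were −1.21, −1.20, −1.05, −1.02 and −1.10, in the order in which they are listed.

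At the other end were genes with small folds and little scatter, named here after their values were seen. Cox6a1, a subunit of complex IV, had the smallest fold of all 97, −0.43 (standard error 0.18), with 397, 361, 434 and 368 CPM on the LF diet and 317, 256, 297 and 292 CPM on the AMLN diet. Atp5d, the delta subunit of ATP synthase, had 319 ± 4.35 and 236 ± 30.5 CPM (−0.44, standard error 0.19). Sdhb, the iron-sulphur subunit of complex II, had 256 ± 22.2 and 168 ± 25.1 CPM (−0.61, standard error 0.20). None of the 3 overlapped between diets, and their LF-fed mice lay close together, the third mouse included. The smallest folds in the other classes were −0.62 for Uqcrc1 and 0.98 for mt-Nd3 in TSP1F/F livers and −0.72 for mt-Te in TSP1ΔPf4 livers. Genes just outside the authors' limit were not analysed here.

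**Figure D3:**
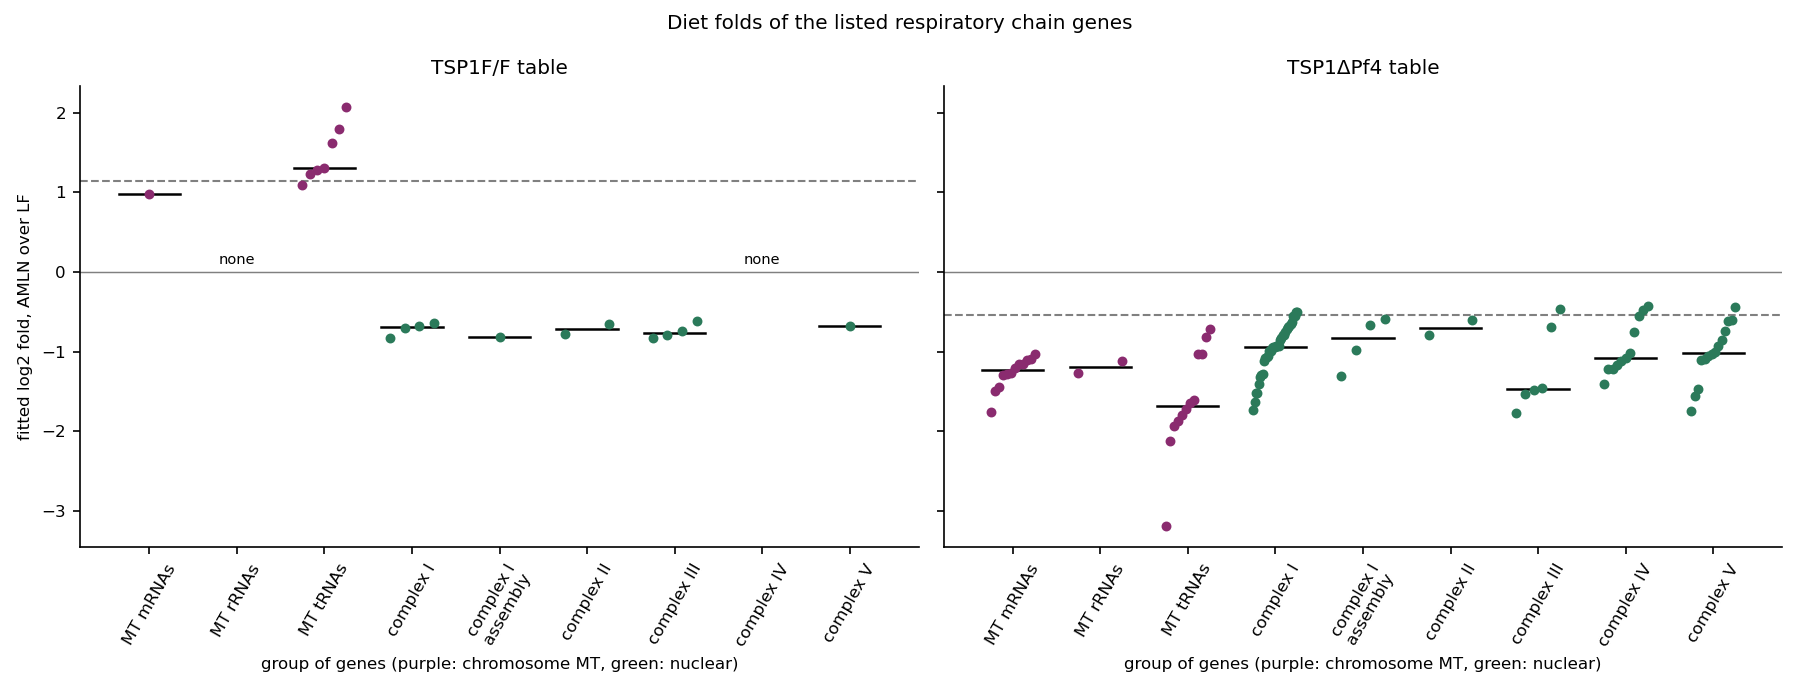
Fitted log2 folds of AMLN over LF for each listed respiratory chain gene that passed the filter on low counts (points), by class, with the class median (black line) and the median of all genes fitted in that table (dashed line). In TSP1F/F livers the mitochondrial genes lay above 0 and the nuclear genes below 0, and in TSP1ΔPf4 livers all 97 genes lay below 0.

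The nuclear members of the TSP1ΔPf4 table had a median length of 1495 bases, against 4964 bases for the genes of that table with the higher AMLN mean and 2058 bases for those with the lower. Of 1343 other protein-coding genes of like length in that table (between the 10% and 90% points of the nuclear members), 72.1% were lower on the AMLN diet, with a median log2 fold of −0.69. In the TSP1F/F table the 1049 such genes were lower in 39.7%, with a median of 0.87. The part of length in the folds was not tested.

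The promoters of the nuclear members were read from RefSeq windows of 300 bases (250 before and 50 after the start, GRCm38.p6), found for 63 of the 76 genes in 68 windows. Nuclear respiratory chain genes are known targets of the factors NRF1, GABPA, YY1 and ESRRA, and the letters of a short core of each were sought on both strands. GCGCATGC, the NRF1 core, was in 16.2% of these windows, in 2.71% of all 32851 windows and in 4.28% of the 4718 windows of all genes in either table. AAGATGGC (YY1) was in 14.7% of the members' windows against 2.75% of all windows. Among the 4718 windows of listed genes AAGATGGC was in 3.41%. CCGGAAGT (GABPA) was in 5.88% of the members' windows, 3.89% of all windows and 6.36% of those of listed genes, so the members did not exceed the listed genes. TCAAGGTCA (ESRRA) was in 2.94%, 0.423% and 0.445% of the windows, and 2.94% stands for 2 windows. The median GC content was 58.5% for the members, 52.7% for all windows and 58.7% for those of listed genes. A match is only a description of letters, and no binding was measured. Stretches of 120 bases before the start are printed for 6 genes chosen for holding a match, with the NRF1 or ESRRA core, on either strand, in capitals.
Ndufa8 (complex I; chr2:36049339-36049458, minus strand): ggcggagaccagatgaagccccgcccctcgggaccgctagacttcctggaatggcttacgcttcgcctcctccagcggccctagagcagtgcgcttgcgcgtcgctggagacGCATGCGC
Ndufa11 (complex I; chr17:56717642-56717761, plus strand): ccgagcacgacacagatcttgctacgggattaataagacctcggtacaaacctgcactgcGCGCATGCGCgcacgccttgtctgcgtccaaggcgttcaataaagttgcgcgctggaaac
Sdhb (complex II; chr4:140961151-140961270, plus strand): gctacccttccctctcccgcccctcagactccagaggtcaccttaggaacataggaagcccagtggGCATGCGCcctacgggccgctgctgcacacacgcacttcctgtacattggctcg
Atp5g2 (complex V; chr15:102671048-102671167, minus strand): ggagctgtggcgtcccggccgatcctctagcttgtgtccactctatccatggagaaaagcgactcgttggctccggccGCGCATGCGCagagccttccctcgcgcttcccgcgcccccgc
Atp5k (complex V; chr5:108434400-108434519, minus strand): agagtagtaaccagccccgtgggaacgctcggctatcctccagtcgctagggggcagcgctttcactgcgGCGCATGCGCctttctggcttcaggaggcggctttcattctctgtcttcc
Atp5g3 (complex V, ESRRA core; chr2:73911327-73911446, minus strand): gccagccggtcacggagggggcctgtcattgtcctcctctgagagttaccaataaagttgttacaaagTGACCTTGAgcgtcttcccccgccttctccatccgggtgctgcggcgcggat

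The genotypes were compared over the 752 genes in both tables, which include 7 mitochondrial members (mt-Tw, mt-Tg, mt-Nd3, mt-Tr, mt-Th, mt-Ts2 and mt-Tl2) and 7 nuclear members (Ndufa8, Ndufb3, Ndufb10, Ndufs7, Sdhd, Uqcrb and Uqcrfs1). These genes entered both tables through the same mice that are compared here, so the p-values below are not independent of that choice. The 7 mitochondrial genes entered in opposite directions in the genotypes, and the 7 nuclear genes entered as lower in both. On the AMLN diet, such selection favours lower values in TSP1ΔPf4 livers for the mitochondrial genes and not for the nuclear genes. The calls below therefore do not test the classes against each other. The 7 mitochondrial genes were higher on the AMLN diet in TSP1F/F livers and lower in TSP1ΔPf4 livers. All but mt-Tw lie in 2 short runs, mt-Tg, mt-Nd3 and mt-Tr (chromosome MT, bases 9391 to 9875) and mt-Th, mt-Ts2 and mt-Tl2 (bases 11546 to 11741), and mt-Tw lies at bases 4950 to 5016, all on the plus strand. Their 6 tRNA sequences, read from GENCODE M21 transcripts (GRCm38), are shown to identify these short genes, with the anticodon in capitals.
mt-Tw (tryptophan): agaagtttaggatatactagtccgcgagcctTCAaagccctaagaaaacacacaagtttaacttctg
mt-Tg (glycine): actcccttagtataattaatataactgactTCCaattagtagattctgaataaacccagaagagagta
mt-Tr (arginine): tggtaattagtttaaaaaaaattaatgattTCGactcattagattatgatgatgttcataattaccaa
mt-Th (histidine): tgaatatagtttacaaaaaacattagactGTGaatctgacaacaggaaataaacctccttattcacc
mt-Ts2 (serine): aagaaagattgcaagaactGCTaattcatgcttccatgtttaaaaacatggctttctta
mt-Tl2 (leucine): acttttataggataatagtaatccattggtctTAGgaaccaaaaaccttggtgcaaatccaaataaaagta

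On the AMLN diet, 6 of the 7 mitochondrial members were called lower in TSP1ΔPf4 than in TSP1F/F livers, the direction that their selection favours. None of the 7 nuclear members was called. The shares below are over all genes compared, not only those selected in opposite directions. Over all 733 genes tested, 8.46% were called lower in TSP1ΔPf4 livers (62 genes) and 4 genes higher, with a median log2 difference of −0.38. With the replicate number as a block 116 genes were called in place of 66, and the same count of 6 mitochondrial and 0 nuclear members was called.

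The histidine tRNA mt-Th had 15.3, 33.8, 16.3 and 17.3 CPM in the AMLN-fed TSP1F/F mice and 1.63, 2.55, 1.94 and 4.44 CPM in the AMLN-fed TSP1ΔPf4 mice. Its log2 difference was −2.97 (standard error 0.41, adjusted p = 0.00268 from edgeR, Benjamini-Hochberg over the 733 genes). mt-Nd3 had 90.5, 167, 70.1 and 111 CPM in the control mice and 16.6, 25.6, 25.4 and 29.8 CPM in the TSP1ΔPf4 mice, a log2 difference of −2.17 (standard error 0.33, adjusted p = 0.00334 from edgeR). Every TSP1ΔPf4 mouse was below every control mouse in both genes.

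The tRNA neighbours of mt-Nd3 were lower as well. The sequencing reads named in the paper are longer than these tRNAs, so a read counted there can reach into the adjoining gene. Calls within either run may therefore share reads and are not independent results. The glycine tRNA mt-Tg had 8.68, 18.8, 8.58 and 6.97 CPM in the AMLN-fed TSP1F/F mice against 0.934, 1.27, 2.20 and 3.06 CPM in TSP1ΔPf4 mice (−2.53, standard error 0.47, adjusted p = 0.00777 from edgeR). The arginine tRNA mt-Tr had 5.90, 14.6, 8.23 and 19.2 CPM against 0.534, 1.44, 1.63 and 2.11 CPM (−3.07, standard error 0.51, adjusted p = 0.00408 from edgeR).

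In the second run, the serine tRNA mt-Ts2 had 17.0, 43.5, 13.3 and 32.0 CPM in AMLN-fed TSP1F/F mice and 0.934, 3.17, 4.11 and 4.05 CPM in TSP1ΔPf4 mice (−3.11, standard error 0.51, adjusted p = 0.00408 from edgeR). The leucine tRNA mt-Tl2 had 22.5, 37.3, 16.5 and 53.1 CPM against 0.834, 4.65, 5.48 and 4.09 CPM (−3.10, standard error 0.54, adjusted p = 0.00533 from edgeR). The genotypes did not overlap in any of these 6 genes, which was so, in the same direction, for 12.1% of the 752 genes. The selection of the 6 favours that direction, while the 752 include genes selected in the same direction in both genotypes. The 12.1% is therefore not a like share. The tryptophan tRNA mt-Tw had 9.08, 12.3, 4.83 and 15.7 CPM against 2.17, 5.14, 7.43 and 4.65 CPM, overlapped, and was not called (−1.11, standard error 0.44, adjusted p = 0.141 from edgeR). Relative to the median of all genes tested, the log2 differences of the 6 called genes were −1.79 (mt-Nd3) to −2.73 (mt-Ts2).

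The chromosome 1 pseudogenes lie in the same order as the end of mt-Co1, mt-Co2, mt-Atp6, mt-Co3, mt-Nd3, mt-Nd4l and the start of mt-Nd4. Between the copies of mt-Co3 and mt-Nd3 lie 69 bases, where the mitochondrial genome has 68 bases holding mt-Tg, and between those of mt-Nd3 and mt-Nd4l lie 74 bases, where it has 70 bases around mt-Tr. The second run lies beyond mt-Nd4, outside the stretch these pseudogenes cover. None of the words of the 6 tRNAs occurs in transcripts of other genes, and unannotated genome sequence was not searched here. The part of the copies in the differences of either run was not tested.

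The 7 nuclear members had log2 differences between −0.51 (Sdhd, standard error 0.32) and 0.13 (Uqcrb, standard error 0.37), with adjusted p = 0.368 as the smallest from edgeR, and all overlapped between genotypes. Ndufs7, a core subunit of complex I, had 77.1, 90.4, 42.9 and 87.3 CPM in AMLN-fed TSP1F/F mice and 75.2, 76.2, 74.4 and 87.0 CPM in TSP1ΔPf4 mice. Uqcrfs1, the Rieske iron-sulphur protein of complex III, had 245 ± 78.3 and 251 ± 42.3 CPM (SD, n = 4 each). The signs of these differences depend on the scaling, since their median was −0.09 with library totals, 0.17 with TMM factors and 0.21 with DESeq2, while the median of the 7 mitochondrial members was −2.97, −2.72 and −2.66. The complex I accessory subunits Ndufa8, Ndufb3 and Ndufb10 had differences of −0.15, −0.17 and −0.09 (standard errors 0.32, 0.34 and 0.32).

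**Figure D4:**
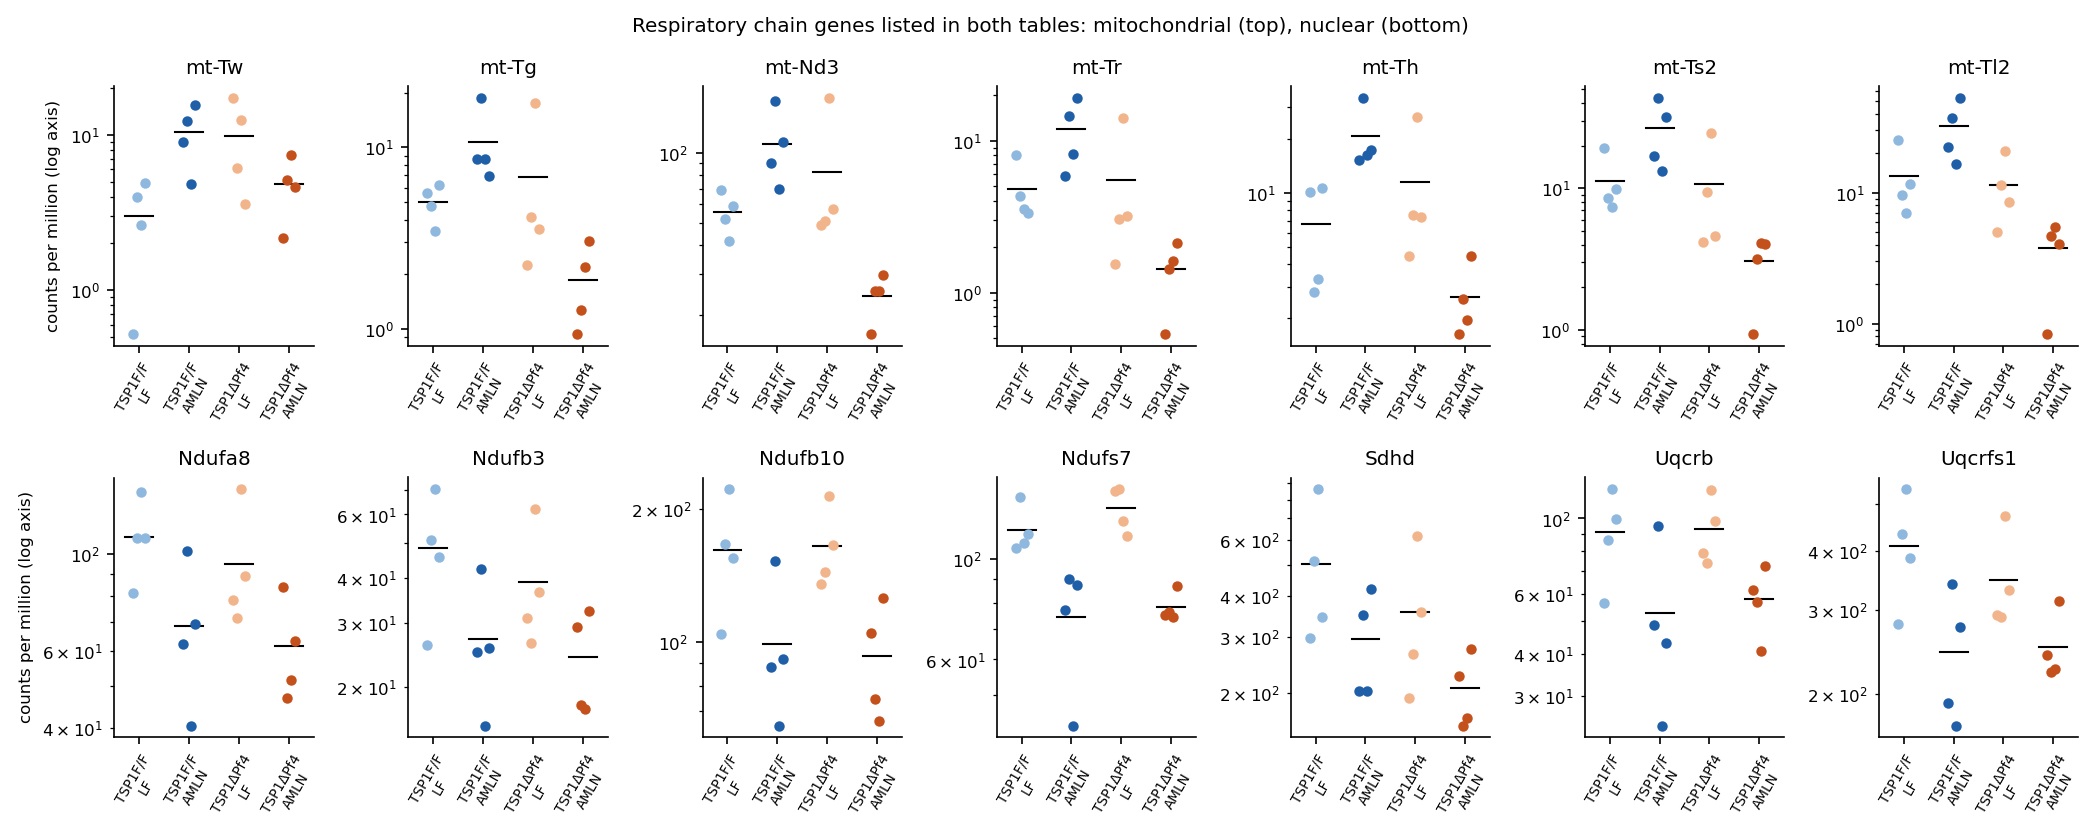
CPM (log axis) of the 14 respiratory chain genes in both tables, in each mouse (points) of the 4 groups, with the group mean (line). In the top row 6 of the 7 mitochondrial genes had all AMLN-fed TSP1ΔPf4 mice below all AMLN-fed TSP1F/F mice, and in the bottom row all nuclear genes overlapped between genotypes.

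On the LF diet, edgeR called 0 of 640 genes lower in TSP1ΔPf4 livers (0.0%) and 0 higher, 44 genes had an unadjusted p under 0.05, and DESeq2 called 1 gene, which was no member. Among the members, mt-Tw alone had an unadjusted p under 0.05. It had 0.522, 3.97, 2.65 and 4.88 CPM in LF-fed TSP1F/F mice and 17.4, 6.09, 12.5 and 3.61 CPM in TSP1ΔPf4 mice, a log2 difference of 1.71 (standard error 0.65, adjusted p = 0.657 from edgeR). The other 6 mitochondrial genes had differences from −0.22 (mt-Tl2, standard error 0.49) to 0.77 (mt-Th, standard error 0.62). The third LF-fed TSP1ΔPf4 mouse was the highest of the 4 for all 6, with 172 CPM of mt-Nd3 against 48.9, 51.1 and 57.5 CPM in the others. Without it all 6 differences were negative, from −0.90 (mt-Ts2) to −0.06 (mt-Th), and none was called. The nuclear members differed by −0.50 (Sdhd, standard error 0.42) to 0.15 (Ndufs7, standard error 0.22).

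The difference between the genotypes in their response to the diet was fitted as an interaction term over all 16 mice. It is the difference of the same 2 contrasts on which the genes were selected, so its p-values are not independent of that selection. For the 7 mitochondrial genes, selected in opposite directions, the selection itself favours a negative value. Of 734 genes tested, 3 were called (0.409%), all with the lower response to the diet (AMLN over LF) in TSP1ΔPf4 livers. Of the 3, 2 were members. The log2 response of mt-Nd3 in TSP1ΔPf4 less that in TSP1F/F livers was −2.74 (standard error 0.54, adjusted p = 0.0455 from edgeR), and that of mt-Th was −3.74 (standard error 0.80, adjusted p = 0.0495 from edgeR). The other mitochondrial genes had differences of −3.25 (mt-Tr), −3.03 (mt-Ts2), −2.97 (mt-Tg), −2.88 (mt-Tl2) and −2.82 (mt-Tw) and were not called, with adjusted p from 0.0558 to 0.0736 in edgeR. The nuclear genes had differences between −0.12 and 0.27 with adjusted p of 0.858 or more from edgeR. Without the third LF-fed TSP1ΔPf4 mouse, and with the replicate block, 0 genes were called, while DESeq2 called 44 genes, among them all 7 mitochondrial members.

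Other mitochondrial genes, from lists chosen beside the members, are described by how many were in each table. Of 78 mitochondrial ribosomal protein genes, 18 were in the TSP1F/F table, all lower on the AMLN diet, and 40 in the TSP1ΔPf4 table, 39 of them lower. Mrpl33 had 47.6 ± 29.1 CPM on the LF diet and 17.4 ± 6.13 CPM on the AMLN diet in TSP1ΔPf4 livers (log2 fold −1.45, standard error 0.38). Of 25 import genes, 1 was in the TSP1F/F table, Timm10, which was lower, and 14 in the TSP1ΔPf4 table, 12 of them lower, with Tomm5, a small subunit of the outer membrane translocase, at 57.2 ± 40.1 and 18.7 ± 7.18 CPM. Of 40 assembly factors outside the name rule, 6 of 6 were lower in TSP1F/F livers, led by Cox16 (−1.23, standard error 0.42), and 10 of 12 in TSP1ΔPf4 livers, led by Pet100 (−2.18, standard error 0.55). Of 30 genes of mitochondrial DNA upkeep and RNA, 4 of 4 were lower in TSP1F/F and 5 of 6 in TSP1ΔPf4 livers.

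Genes of the oxidation pathways that feed the chain were in both tables, mostly different genes in each. Of 18 genes of fatty acid beta oxidation, 11 were in the TSP1F/F table and all 11 were lower on the AMLN diet, with Decr1, an auxiliary enzyme for unsaturated fatty acids, at 452 ± 164 and 227 ± 55.3 CPM. In the TSP1ΔPf4 table there were 5, 3 higher and 2 lower. Of 17 citric acid cycle genes, 4 of 4 were lower in TSP1F/F livers, with Fh1, fumarate hydratase, at 352 ± 86.5 and 167 ± 44.2 CPM. Of 8 in the other table, 4 were lower and 4 higher in TSP1ΔPf4 livers, with Cs, citrate synthase, at 59.8 ± 6.24 and 87.5 ± 17.7 CPM (0.55, standard error 0.21). Of 21 electron carriers and feeders, 5 of 5 were lower in TSP1F/F livers and 3 of 4 in TSP1ΔPf4 livers, where Etfb, a subunit of the electron transfer flavoprotein, had a fold of −1.70 (standard error 0.35). Of 13 regulators, Gabpa was in both tables, at 30.0 ± 3.73 and 20.9 ± 2.86 CPM in TSP1F/F livers and 24.4 ± 1.09 and 31.0 ± 2.85 CPM in TSP1ΔPf4 livers, and Gabpb1 was lower in TSP1F/F livers (−0.89, standard error 0.38). Without the third LF-fed TSP1ΔPf4 mouse the counts of lower genes in these lists were the same, while the median fold of the ribosomal proteins went from −0.85 to −0.58, that of the import genes from −0.79 to −0.51 and that of the assembly factors from −0.77 to −0.50. Mrpl33 was then at −0.94, Tomm5 at −1.03, Pet100 at −1.48 and Etfb at −1.34. None of the genes of these lists that were in both tables was called between genotypes or in the interaction.

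Markers of other cells differed between the diets in both tables. Of 10 macrophage markers 9 were in each table, all higher on the AMLN diet, and their summed level was 91.9 to 474 CPM on the LF diet and 623 to 2486 CPM on the AMLN diet in TSP1F/F livers, against 94.5 to 180 and 288 to 400 CPM in TSP1ΔPf4 livers. The AMLN-fed genotypes did not overlap in this sum. Of 10 hepatocyte markers, 3 of 3 were lower in TSP1F/F and 5 of 6 in TSP1ΔPf4 livers on the AMLN diet. Stellate cell markers were higher in both tables (5 of 5, with 12.3 to 30.1 CPM on the LF diet and 93.0 to 181 CPM on the AMLN diet in TSP1F/F livers, and 4 of 4, with 18.4 to 31.2 and 27.2 to 113 CPM in TSP1ΔPf4 livers). Of 5 red blood cell markers, Hba-a1 and Hba-a2 were higher in TSP1F/F livers and Hba-a2 was lower in TSP1ΔPf4 livers. T and B cell, endothelial and cholangiocyte markers had at most 2 listed genes in either table. The part of these cells in the differences of the respiratory chain genes was not tested.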

How the data were processed

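Liver RNA-seq of 16 mice in 4 groups of 4 was deposited as 2 tables, one per genotype. The authors gave raw gene counts, a normalised signal (counts divided by 1 size factor per library) and FPKM for each mouse. The log2 fold and p-value columns are the authors' own diet comparison and were not used. As deposited, both tables hold only genes with an unadjusted p-value under 0.05 in that comparison. The paper's methods instead name an adjusted p-value under 0.05 together with a minimum log-fold change. Which of these rules made the tables was not determined here. The study's methods name STAR, the label tools HISAT2 and DESeq2, and both mm10. The counter, annotation release, strand setting and RNA selection are not given in the sources used here.

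Library totals were computed from counts, gene lengths and FPKM, and gave 17127965 to 39753019 reads per library. Counts were fitted with edgeR 4.0.16 (R 4.3.3), quasi-likelihood test, library totals as offset, edgeR's filter on low counts, Benjamini-Hochberg adjustment over the genes tested, and a threshold of 0.05. The genotypes were compared over the 752 genes in both tables, without a replicate block. The alternatives were DESeq2 1.42.0, TMM factors, totals less mitochondrial counts, no filter, the block and leaving out each mouse. Same-numbered AMLN-fed mice of both genotypes deviated together (correlations 0.323, 0.127, 0.363 and 0.398 over genes), so the blocked count is printed there. The labels name no shared animal or litter for these numbers, and p-values measure the spread between the mice sampled.

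The members and lists were chosen with earlier results of these data known. The text names all mitochondrial members, the members in both tables and, per table, the 5 nuclear members of largest fold in each direction (none was higher), and up to 2 genes of each list and table with the largest fold. The floor of 3 counts covers counting error only. The standard errors of folds and differences come from the edgeR fits and include the spread between mice.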

Additional observations from a re-analysis of the deposited data

Results flagged for a closer look

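Among 64 groups of 4 mice tested for a mouse far from the others of its group (the gap to the nearest mouse over the range of the group, against Dixon's 95% limit), 8 passed. Chance alone passes about 1 in 20 independent groups. These groups are not independent, since they share mice and neighbouring genes, so the count is a description only. Of these 8, 5 concern LF-fed TSP1ΔPf4 mice. The mitochondrial sum of the first mouse was 138833 CPM (gap over range 0.882). The third mouse had 172 CPM of mt-Nd3, 17.6 CPM of mt-Tg, 26.6 CPM of mt-Th and 14.1 CPM of mt-Tr. In AMLN-fed TSP1F/F livers the second mouse was high for mt-Tg (18.8 CPM) and mt-Th (33.8 CPM). In AMLN-fed TSP1ΔPf4 livers the fourth mouse was high for Ndufs7 (87.0 CPM).

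The interaction of diet and genotype was called in edgeR for mt-Th (−3.74) and mt-Nd3 (−2.74), on genes selected by those same responses. Their selection in opposite directions favours such a difference, and neither was called with the replicate block.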

How the results depend on the processing

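All 26 mitochondrial and 71 nuclear members of the TSP1ΔPf4 table and all 12 nuclear members of the TSP1F/F table were lower on the AMLN diet in every fit run, and all 8 fitted mitochondrial members of the TSP1F/F table were higher. The nuclear median in TSP1ΔPf4 livers was −0.60 with DESeq2 in place of −0.96. Leaving out each mouse gave −1.11 to −0.68 for it, and −1.37 to −1.13 for the mitochondrial median. The 6 mitochondrial calls between AMLN-fed genotypes were made in all 6 other settings and all 8 fits without 1 mouse, with a largest adjusted p of 0.0365 (mt-Tg, edgeR). All these fits used the same selected genes. The count over all genes was 66, 116 with the replicate block and 22 to 84 without 1 mouse, falling to 36 without TSP1F/F replicate 3 and to 33, 22 and 30 without TSP1ΔPf4 replicates 1, 2 and 3. On the LF diet edgeR called 0 genes and DESeq2 1. The interaction count of 3 was 44 with DESeq2, 15 with TMM, 0 with the replicate block and 0 to 24 without 1 mouse, and its mitochondrial calls were 2, then 7 with DESeq2, 0 with the block and 0 to 6 without 1 mouse. It gave 0 calls without AMLN-fed TSP1F/F replicate 4, LF-fed TSP1ΔPf4 replicate 3 or 4, or AMLN-fed TSP1ΔPf4 replicate 1, 2 or 3, and 12, 24 and 13 calls without LF-fed TSP1F/F replicate 2, AMLN-fed TSP1F/F replicate 2 and LF-fed TSP1ΔPf4 replicate 1. It gave 5, 5 and 6 calls without LF-fed TSP1F/F replicates 3 and 4 and AMLN-fed TSP1F/F replicate 1. The causes of these shifts were not tested. Same-numbered mice did not deviate together in the other pairs of groups (correlations −0.478 to 0.373), so their numbers are not taken as pairs. Low counts limit the tRNAs, and levels of mitochondrial genes with nuclear copies are uncertain.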
